A study of Rattus norvegicus with 12 samples.

Results

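The 6 genes of antigen presentation Tap1, Tap2, Tapbp, B2m, RT1-A1 and Cd74 are described here. They were chosen by name as genes of peptide transport and of presentation by the major histocompatibility complex (MHC), not by their values. Every probe that the platform annotation assigns to 1 of these genes was taken, which gave 6 probes, 1 for each gene, of 21946 probes analysed. They are 6 of the 12925 genes that the annotation names on the array.

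The probes were measured on 12 rat arrays of total RNA. The arrays covered exosomes, the small vesicles that cells shed, from ASML cells (wt exosomes, 3 arrays), a metastasizing rat pancreatic adenocarcinoma line, and exosomes from ASML cells with a knockdown of CD44v, the variant forms of the adhesion molecule CD44 (kd exosomes, 3 arrays). The other arrays covered B12 cells, a lymph node stroma line, left untreated (2 arrays), given wt exosomes for 24 h (2 arrays) or given kd exosomes (2 arrays, 24 h). The file headers mark the untreated arrays with 24 h as well. The labels do not say how the knockdown was made, whether it is 1 clone, how much exosome was given or whether replicates are separate preparations, so p-values measure only the spread between these arrays.

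In the class I route, proteasomes cut proteins inside the cell, the transporter made of Tap1 and Tap2 carries the peptides into the endoplasmic reticulum, and tapasin, the product of Tapbp, holds the empty class I molecule at the transporter until a peptide binds. A class I molecule is a heavy chain, of which RT1-A1 encodes a classical one in the rat, paired with beta-2-microglobulin, the product of B2m. In the class II route of professional antigen-presenting cells, the invariant chain Cd74 fills the groove of new class II molecules on their way to the endosome. Interferon-gamma is the classical inducer of these genes, acting through interferon regulatory factors and, with other signals, NF-kappaB.

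In GRCr8 coordinates, Tap2 lies at chr20:4638257-4652296, Tap1 at chr20:4658171-4668543, RT1-A1 at chr20:4907139-4910798 and Tapbp at chr20:4958821-4967958, all within the rat MHC. B2m lies at chr3:129549236-129555354 and Cd74 at chr18:56527071-56536406. The position of each probe within its gene was not used here.

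The members differ in the interferon-type sequence in a window before an annotated start. That start need not be the outer end of the gene span given above, and for Tapbp, B2m, RT1-A1 and Cd74 it lies inside the span. The stretches below, from RefSeq on GRCr8 and read 5′ to 3′ on the gene's strand, are shown because the array values of the members that carry the long interferon motif and of the class I chains that lack it can then be read beside them. Capitals mark matches on either strand to the interferon-stimulated response element, searched as GAAA and GAAA with any 2 bases between, to its shorter core AANNGAAA, and the nearest match to the NF-kappaB site, searched as GGGA and CC with any 4 bases between.
Tap1, chr20:4668574-4668679, minus strand: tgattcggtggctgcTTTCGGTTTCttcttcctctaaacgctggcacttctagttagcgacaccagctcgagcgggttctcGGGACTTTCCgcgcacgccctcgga
Tap2, chr20:4652313-4652356, minus strand: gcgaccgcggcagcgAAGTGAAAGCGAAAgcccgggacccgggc
Tapbp, chr20:4967878-4967953, minus strand: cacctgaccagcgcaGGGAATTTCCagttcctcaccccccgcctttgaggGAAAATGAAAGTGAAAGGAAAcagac
B2m, chr3:129549165-129549217, plus strand: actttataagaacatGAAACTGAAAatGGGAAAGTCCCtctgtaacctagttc
RT1-A1, chr20:4907068-4907126, plus strand: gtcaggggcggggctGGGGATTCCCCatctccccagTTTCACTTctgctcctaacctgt
RT1-A2, chr20:4872682-4872739, plus strand: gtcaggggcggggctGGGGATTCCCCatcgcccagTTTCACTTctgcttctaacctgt
The interferon-stimulated response element was present within the 250 bases before the start of Tap1, Tap2 and B2m (1 match each) and of Tapbp (2 overlapping matches), and in 3.41% of 33469 rat promoters. It was not found in that window of RT1-A1 or Cd74, which held AANNGAAA (1 match each), a motif present in 23.3% of promoters that also lies inside every match to the longer element. The NF-kappaB site was present in all members other than Tap2 and in 16.4% of promoters. TTCNNNGAA, the gamma-activated site, was found in the window of none of the 6 members and in 7.67% of promoters. RT1-A2, a neighbouring class I heavy chain gene, is shown beside RT1-A1 because its printed stretch was identical in 56 of 59 aligned columns (94.9%) while its array values moved apart from those of RT1-A1. The printed Tapbp stretch and the AANNGAAA match of Cd74 fall within the gene spans given above. A match is a description of these letters and not of binding.

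On exosome arrays the background level was 104.5 to 107.9 intensity units and the mean signal above it 100.1 to 299. For B12 cells these were 118 to 125 and 505 to 588. A probe was counted as detected where its deposited p-value was under 0.05 and it lay above background, which held for 42.8% to 52.2% of probes with exosome RNA and 53.2% to 54.3% with B12 RNA. The Cd44 probe, which need not lie in the variant exons, read 166, 208 and 165 on the wt exosome arrays and 166, 149.6 and 123 on the kd exosome arrays, a normalised log2 difference of -1.43 ± 0.28 (SE, adjusted p = 0.380). Among 9 epithelial markers, 7 were detected on all arrays of each exosome group, Epcam included.

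Some arrays stand apart from their labels' groups. The kd exosome array number 3 correlated over probes at 0.946 to 0.969 with the wt exosome arrays, but at 0.829 and 0.842 with the other 2 kd exosome arrays, whose own correlation was 0.986. The B12 arrays split by replicate number: the summed signal of 11 stroma markers was 3526 to 7322 on the arrays numbered 1 and 87730 to 101600 on those numbered 2, while that of 9 epithelial markers was 35480 to 58360 and 7354 to 12330. Pdgfra, a receptor of stromal fibroblasts, read 2819 to 3028 on the number 2 arrays and 120.3 to 138 on the number 1 arrays. The epithelial sum came mainly from Krt8, Krt19 and Tspan8, and Epcam, Cldn3 and Krt18 were detected on no B12 array. The stroma marker Thy1 was not detected on any B12 array either. The stroma sum on the number 2 arrays came mainly from Cxcl12, Col1a2 and Dcn, and not all stroma markers moved with it. Ltbr read 258 to 301 on the number 1 and 290.5 to 306.5 on the number 2 arrays. Pdpn was detected only on the treated number 1 arrays. In treated cells Col1a1 read 1283 and 1475 on the number 1 and 1717 and 1907 on the number 2 arrays. Values are therefore given by array throughout.

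The B12 cells expressed 5 of the 6 genes. Tap1, Tap2, Tapbp, B2m and RT1-A1 were detected on all 6 B12 arrays. In the exosomes, B2m, RT1-A1 and Tap1 were detected on all 6 arrays, Tapbp on 3 and Tap2 on none. The Cd74 probe was not detected on any B12 array, nor on any wt exosome array.

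**Figure D1:**
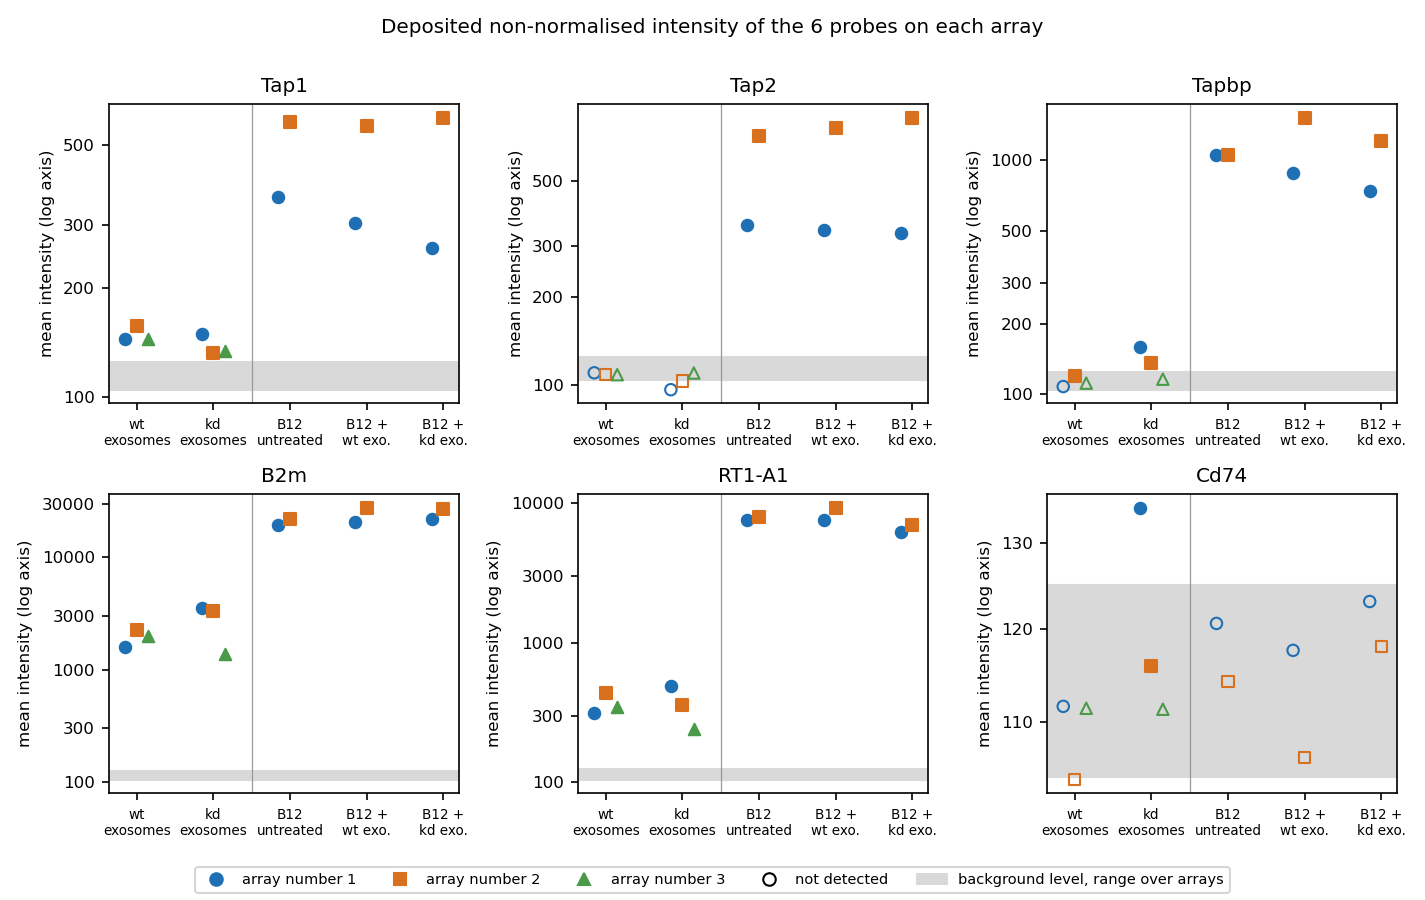
Deposited intensity (log axis) of each member's probe on the 12 arrays, 1 point per array, with the array number as symbol, open symbols for probes not detected and the grey band for the range of background levels. Tap1, B2m and RT1-A1 are filled on all arrays, Tap2 is open on all 6 exosome arrays, and Cd74 is filled on kd exosome arrays 1 and 2 only.

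The first question was how the RNA shed in exosomes compares with that of the recipient cells. For this all 12 arrays were put on a common scale, on which wt exosomes were set against B12 cells left untreated. The comparison joins a difference of cell line with one of exosome against cell RNA. Of the 5 members tested, 4 were lower in the exosomes, beside 17.1% of 12231 probes called lower and 18.1% called higher (35.2% in all). Among them Tap2 and Tapbp passed the detection filter only through the B12 groups, where they were higher, so the filter favoured their direction. B2m and RT1-A1 were detected in all groups. On this scale Tap1 stood near the B12 level, and its partner Tap2 was below detection in the exosomes.

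For the transporter, Tap1 read 144, 157 and 144.9 in the wt exosomes and 360 and 581 in untreated B12 cells. On the common log2 scale the means were 7.56 ± 0.24 (SD, n = 3) and 7.76 ± 0.43 (SD, n = 2), a difference of -0.21 ± 0.59 (SE, adjusted p = 0.794). The groups overlapped on that scale, although the raw intensities did not. Tap2 read 110, 109 and 109 in the wt exosomes, at background, and 354 and 711 in untreated B12 cells. It fell by 3.33 ± 0.59 on the fitted log2 scale (adjusted p = 0.00212), and the bound from the lowest detected signal, on this scale only, was at least 9.49-fold lower in the exosomes. Over the 5 scales tried its fitted difference ran from -3.79 to -1.24.

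Tapbp, which bridges the transporter and the class I molecule, was at or near background in the wt exosomes. It read 108, 119.8 and 111 in the wt exosomes, detected on 1 of the 3, and 1056 and 1052 in untreated B12 cells. The log2 difference was -4.36 ± 0.48 (adjusted p = 0.000135), and all wt exosome arrays lay below both cell arrays, as for 31.8% of probes. With the exosome level near background this size depended on the scale, from -4.91 to -2.02.

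Both subunits of the class I molecule were detected on every array. B2m read 1584, 2237 and 2000 in the wt exosomes and 19230 and 21850 in untreated B12 cells, a log2 difference of -1.46 ± 0.16 (adjusted p = 0.000118). RT1-A1 read 314, 434 and 349 against 7511 and 7867, a log2 difference of -2.20 ± 0.26 (adjusted p = 0.000183). All 3 exosome arrays lay below both cell arrays for each gene. With only the untreated B12 array of number 2, or only that of number 1, the differences were -1.54 and -1.43 for B2m, -2.09 and -2.32 for RT1-A1, -4.17 and -4.42 for Tapbp and -3.78 and -2.74 for Tap2, all 8 called. For Tap1 they were -0.51 and 0.10, neither called. Such a fit has 1 untreated array, whose spread is taken from the other groups.

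Scaling each array to its median, instead of matching the whole distributions, lowered the median of all probes in the exosomes by a log2 value of -1.18. Relative to that shift, Tap1 then stood at -1.0 and was called lower (adjusted p = 0.00742), B2m at -1.93, RT1-A1 at -3.25, Tap2 at -2.61 and Tapbp at -3.73. The level of Tap1 in exosomes relative to cells thus depended on the scale, while the other 4 were lower on all 5 scales tried.

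The neighbouring steps of the route were read from lists of named genes. Of 7 tested genes of the peptide loading complex and trimming, 5 were called lower in the wt exosomes and none higher, with a median log2 difference of -1.58 beside 0.05 over all probes. They were Tapbpl, a tapasin-related peptide editor (-2.89), the chaperones Calr (-1.78) and Canx (-1.38), Pdia3, a thiol oxidoreductase of the loading complex (-2.71), and Uggt1, which checks the folding of glycoproteins and was not detected in the wt exosomes (at least 2.40-fold lower). With Uggt1 at its bound the list median was -1.38. Tapbpl, Calr, Canx and Pdia3 were called on all 5 scales and Uggt1 on 4. Of 15 class I chains and class I-like partners of B2m, 5 were lower and none higher (median -0.40, or -0.39 with the 4 genes detected in 1 group only at their bounds): Fcgrt, the neonatal Fc receptor (-2.83), RT1-CE15 (-1.61), RT1-S3 (at least 8.42-fold), RT1-CE16 (at least 4.70-fold) and Cd1d1, which presents lipids (at least 5.81-fold). These bounds and that of Uggt1 hold on this scale only, and the smallest fitted differences over the 5 scales were -1.28 for RT1-S3, -0.70 for RT1-CE16, -1.23 for Cd1d1 and -0.36 for Uggt1. Median scaling called 9 of the 15 class I genes lower, with a median of -2.40 beside its shift of -1.18 over all probes.

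The immunoproteasome, which cuts peptides for class I, went the other way for 1 subunit. Psmb8 read 716, 1282 and 1056 in the wt exosomes and 381 and 763 in untreated B12 cells. It was higher by 3.58 ± 0.48 on the log2 scale (adjusted p = 0.000421), called on 4 of the 5 scales with values from 1.45 to 3.58. Psmb9 stood at 1.66 ± 0.88 and was not called (adjusted p = 0.160), and the proteasome activator Psme1 was lower by a log2 value of -0.51.

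In the class II route, none of 3 tested chains or loading factors was called. Of 7 proteases, inhibitors and partners, 3 were lower: the endosomal proteases Ctsl (-3.99) and Lgmn (-3.41) and the cathepsin inhibitor Cst3 (-1.47). Of 14 regulators, 5 were lower and 2 higher. Over all probes 17.1% were called lower and 18.1% higher. The lower regulators were the interferon-gamma receptor chains Ifngr1 (-5.32) and Ifngr2 (-4.13), the kinases Jak1 (-1.07) and Jak2 (-1.66) and the NF-kappaB subunit Nfkb1. Nfkb1 was at least 4.14-fold lower on this scale, with fitted values from -2.67 to -0.72 over the 5. In the wt exosomes Ifngr1 (109 to 119), Ifngr2 (115 to 124) and Lgmn (116 to 125) read near background. Over the 5 scales they ran from -5.85 to -2.98, -4.97 to -2.22 and -4.37 to -1.69, with Ifngr1 called on 4. Ifngr1 read 620 and 6907 in untreated B12 cells. The 2 that were higher, Nfyb (0.99) and Rfxank (1.14), changed sign with median scaling, to -1.295 and -0.63. RT1-DMa (1.05) and RT1-DMb (0.85), which were not called, changed sign too, to -0.73 and -1.06. The median of all probes was then -1.18, so Rfxank, RT1-DMa and RT1-DMb still stood above that median, and Nfyb below it.

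**Figure D2:**
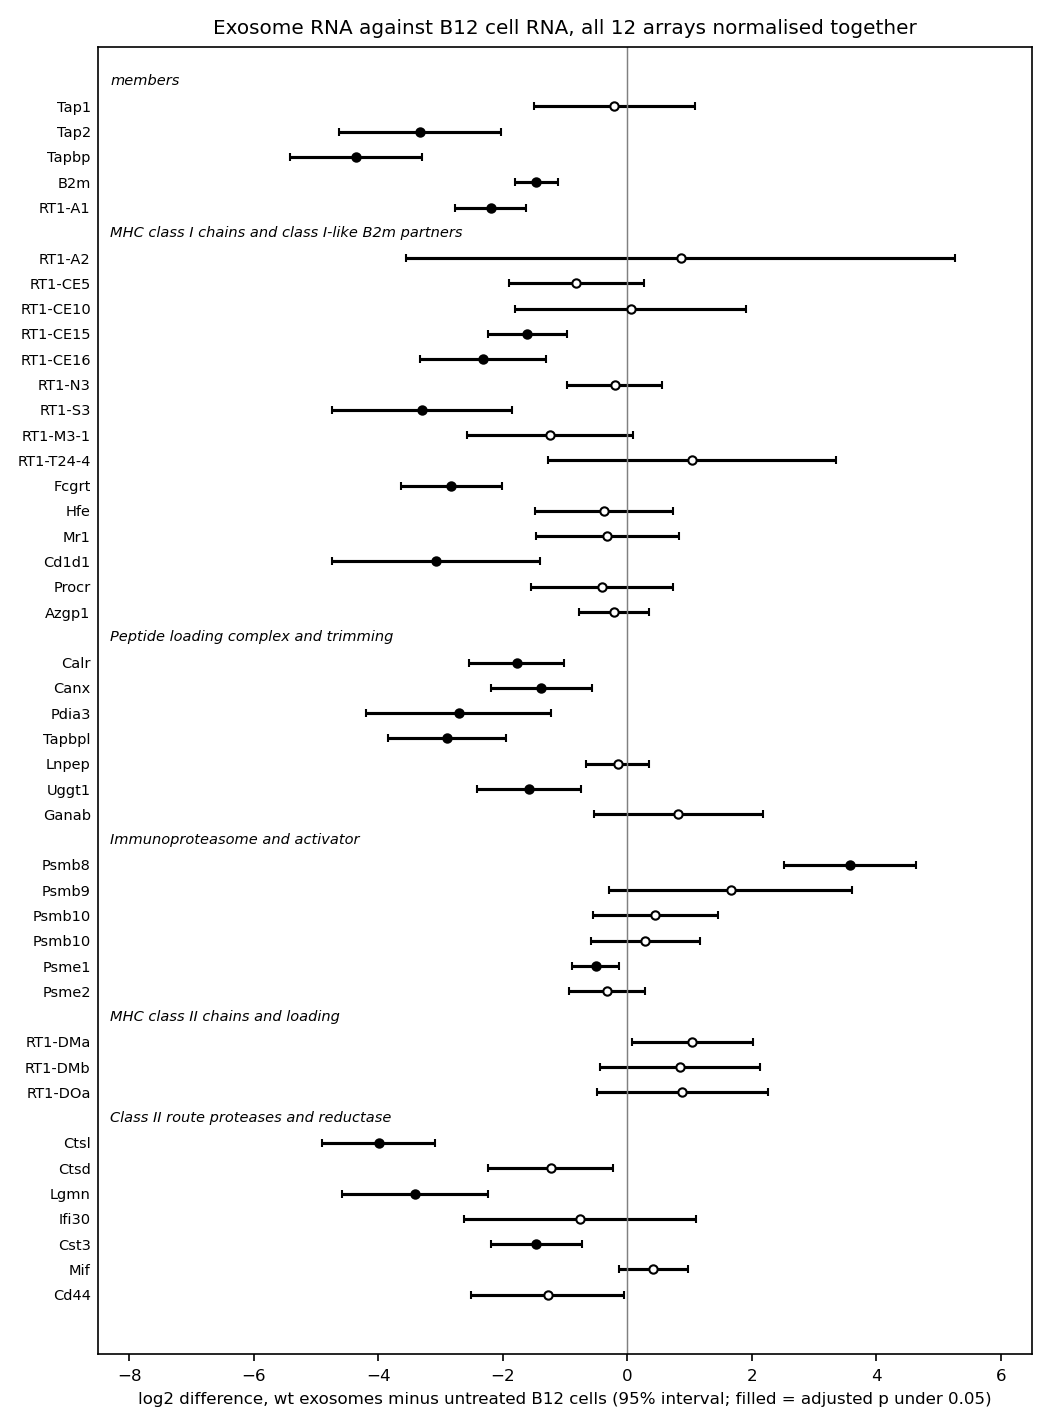
Log2 difference between wt exosomes (3 arrays) and untreated B12 cells (2 arrays) for each tested probe of the members and 5 gene lists, with the 95% interval of limma, and filled points where the adjusted p was under 0.05. The members Tap2, Tapbp, B2m and RT1-A1 and 5 loading complex genes lie below 0, Tap1 spans 0, and Psmb8 lies above it at 3.58.

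On the common log2 scale the order of the 5 groups differed between members, while B12 cells stood above exosomes for Tap2, Tapbp, B2m and RT1-A1. SDs are over the 2 or 3 arrays of a group. RT1-A1 was at 12.36 ± 0.16 in cells given wt exosomes and 12.28 ± 0.16 in untreated cells, which overlapped, then at 12.02 ± 0.05 in cells given kd exosomes, 10.09 ± 0.12 in wt and 9.26 ± 0.51 in kd exosomes, with no overlap from each step to the next. B2m was at 14.05 ± 0.29, 14.05 ± 0.10 and 13.91 ± 0.10 in cells given wt or kd exosomes and untreated cells, which overlapped, and at 12.44 ± 0.11 and 12.26 ± 0.18 in wt and kd exosomes, which overlapped too. For both chains the clear step lay between cells and exosomes.

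Tap2 was at 8.03 ± 1.06, 7.93 ± 0.71 and 7.91 ± 1.04 in cells given kd exosomes, untreated cells and cells given wt exosomes, which overlapped, and was not detected in either kind of exosome. Tapbp was at 9.29 ± 0.64, 9.20 ± 0.19 and 9.05 ± 0.47 in cells given wt exosomes, untreated cells and cells given kd exosomes, and at 6.02 ± 0.64 in kd and 4.84 ± 0.39 in wt exosomes, the latter mostly below detection. Tap1 had no such step, since all neighbours overlapped in its order of 7.76 ± 0.43 in untreated cells, 7.56 ± 0.86 after wt exosomes, 7.56 ± 0.24 in wt exosomes, 7.51 ± 1.05 after kd exosomes and 6.59 ± 0.74 in kd exosomes. Cd74 was highest in kd exosomes, at 5.12 ± 0.37, and was detected on 2 of those arrays and on no other.

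The second question was whether the CD44v knockdown changed these transcripts in the exosomes. RT1-A1 and Tap1 were at lower normalised levels on 2 of the 3 kd exosome arrays, and near the wt level on the other. With all arrays, none of the 3 tested members passed the threshold, nor did any of 8699 probes (0%), of which 13.1% had an unadjusted p under 0.05.

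RT1-A1 had normalised log2 intensities of 8.85, 8.63 and 8.64 in the wt exosomes and of 7.63, 7.50 and 8.45 in the kd exosomes. All kd arrays lay below all wt arrays, as for 11.5% of probes tested. The difference was -0.84 ± 0.27 (SE, 95% interval -1.49 to -0.20, unadjusted p = 0.0171, adjusted p = 0.380). Against the wt mean, kd arrays 1 and 2 stood at -1.07 and -1.20 and array 3 at -0.26.

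Tap1 was at 6.52, 6.19 and 6.15 in the wt exosomes and at 5.35, 5.35 and 6.19 in the kd exosomes. The difference was -0.66 ± 0.33 (95% interval -1.44 to 0.12, adjusted p = 0.407), and kd array 3 lay within the wt range. B2m was at 11.35, 11.17 and 11.39 against 10.90, 11.08 and 11.32, a difference of -0.20 ± 0.15 (adjusted p = 0.523). Its groups overlapped.

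Tapbp and Cd74 were not tested here, because neither was detected on all arrays of a group. Tapbp read 159, 136 and 116 on the kd exosome arrays, detected on numbers 1 and 2, and stood 0.88, 0.83 and 0.30 above the wt mean in log2, the opposite side from Tap1 and RT1-A1. Cd74 read 134, 116 and 111 on the kd exosome arrays, detected on numbers 1 and 2, against 112, 104 and 111 on the wt arrays. Both probes stayed close to background, and for Cd74 the bound was only at least 1.20-fold higher in the kd exosomes. Tap2 was detected in neither group.

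**Figure D3:**
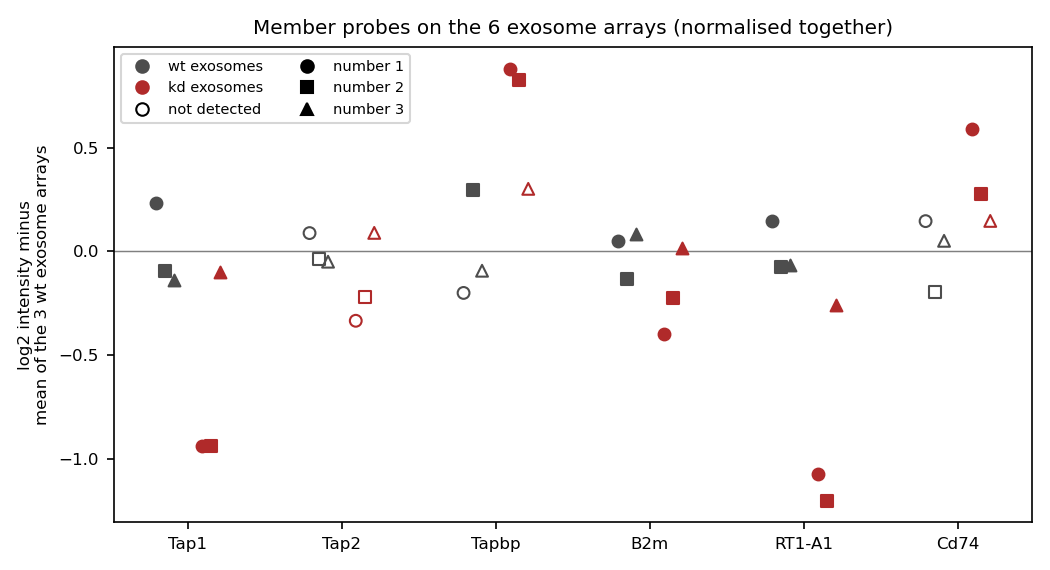
Normalised log2 intensity of each member's probe on the 6 exosome arrays, relative to the mean of the 3 wt arrays, with kd exosomes in red, the array number as symbol and open symbols for probes not detected. For Tap1 and RT1-A1 the kd arrays 1 and 2 lie at about -0.94 to -1.20 and array 3 at -0.10 and -0.26. For Tapbp the same 2 arrays lie at 0.88 and 0.83.

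Without kd array 3, 4332 of 10169 probes were called (42.6%), 17.4% lower and 25.2% higher, and 4 of 5 tested members. RT1-A1 fell by 1.14 ± 0.13 (adjusted p = 0.000140), Tap1 by 0.995 ± 0.28 (adjusted p = 0.0179) and B2m by 0.31 ± 0.10 (adjusted p = 0.0345). Tapbp rose by 0.90 ± 0.24 (adjusted p = 0.0154), and Cd74 stood at 0.45 ± 0.20 (adjusted p = 0.0917). Tapbp and Cd74 entered this fit only because both remaining kd arrays detected them, the side where they were higher. On the wt arrays Tapbp was detected on 1 and Cd74 on 0, so the filter favoured a rise and the Tapbp call is no separate support. Several markers of other cell types were lower on the same 2 arrays, and so were several epithelial markers on the normalised scale. The summed signal of 11 stroma markers was 147 and 30.7 on kd arrays 1 and 2, against 256 to 475 on the wt arrays and 414 on kd array 3. Col1a2, a collagen chain, stood at a log2 level of 9.32, 7.75 and 9.15 on the wt arrays and 5.75, 4.18 and 9.56 on the kd arrays. The macrophage genes Aif1 and Cd68 and the stroma marker Pdpn were detected on all wt arrays and kd array 3 but not on kd arrays 1 and 2. Not all such markers went that way. The blood-cell marker Cd14 was at log2 levels of 6.06 and 6.09 on kd arrays 1 and 2. It was at 4.96 to 5.81 on the wt arrays and 5.84 on kd array 3. The stroma marker Dcn, near background, was at 4.82 and 4.56 on kd arrays 1 and 2 and at 4.35 to 4.78 on the wt arrays. Among the epithelial markers, Epcam was at 9.39 and 9.70 on kd arrays 1 and 2, against 10.12 to 10.43 on the wt arrays. On kd array 3 it was at 10.23. Tspan8, Spint2, Krt7 and Cldn3 also lay below the wt arrays on kd arrays 1 and 2, while Krt8 and Krt19 were near the wt level. The part of all these markers in the members' differences was not tested. These calls rest on leaving out the array that looks least like the other kd arrays. Weighting arrays by their scatter also called all 3 members tested, among 4178 of 8699 probes.

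The kd arrays 1 and 2 were also the brightest of the 6, with a mean signal of 299 and 244 above background against 100.1 for kd array 3 and 108 to 173 for the wt arrays. Before normalisation RT1-A1 read 314, 434 and 349 on the wt and 491, 359 and 240 on the kd arrays, so that its lower place appears only relative to the rest of the array. With median scaling, where the median of all probes was 0.36 higher in the kd exosomes, RT1-A1 stood at -0.50 and Tap1 at -0.70 relative to that median. B2m stood at 0.02 relative to it. The part of array brightness in these differences was not tested.

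In the lists beside the members, 0 genes were called with all arrays. Without kd array 3, 3 of 5 loading complex genes were lower, Calr (-1.21), Canx (-1.54) and Ganab (-1.57), which trims sugars of new glycoproteins. Of 5 immunoproteasome genes 3 were lower, while Psmb8 stood at -0.16 and was not called. Among 12 class I chains and partners, 2 were lower, RT1-A2 (-0.89) and RT1-T24-4 (-0.78), and 2 higher, the iron regulator Hfe (1.09) and RT1-S3 (1.42), beside 17.4% of all probes lower and 25.2% higher. Of 11 regulators 4 were higher, Ifngr2 (1.81), Jak1 (0.95), Jak2 (0.62) and the NF-kappaB subunit Rela (0.59), and 1 was lower, Nfyb (-0.56). Of 7 class II route proteases, inhibitors and partners 3 were lower and 0 higher. RT1 class I genes can be close copies of each other, so an RT1 class I probe may read RNA of its relatives and the share of each gene is uncertain.

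The third question was whether exosomes changed these genes in B12 cells. No member passed the threshold in any of the 3 comparisons, and no probe of 11631 did (0%), with unadjusted p under 0.05 for 2.8% of probes after wt exosomes, 2.46% after kd exosomes and 1.99% between the treated groups. The treated groups share the same untreated arrays. Members' mean differences lay between -0.33 and 0.14 on the log2 scale.

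RT1-A1 had the narrowest interval and the lowest values in cells given kd exosomes. It read 7511 and 7867 in untreated cells, 7590 and 9249 after wt exosomes and 6238 and 6978 after kd exosomes. Both kd-treated arrays lay below the other 4, as was the case against the untreated arrays for 10.2% of probes and against the wt-treated arrays for 9.32%. The log2 difference was -0.25 ± 0.17 from untreated cells (95% interval -0.68 to 0.17) and -0.33 ± 0.17 from cells given wt exosomes (95% interval -0.75 to 0.10), neither called. B2m read 19230 and 21850 in untreated cells, 20800 and 27690 after wt exosomes and 21920 and 26680 after kd exosomes. Its log2 differences from untreated cells were 0.14 ± 0.17 and 0.12 ± 0.17, with intervals that reached from -0.31 to 0.57.

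The transporter and tapasin had wider intervals. Tap1 read 360 and 581 in untreated cells, 303 and 565 after wt exosomes and 259 and 598 after kd exosomes. Tap2 read 354 and 711, 339 and 758, and 332 and 821 in the same order. In each group the number 2 array was well above the number 1 array, and this spread made the interval of Tap1 after wt exosomes run from -2.02 to 1.57. With the array number as a term in the fit it ran from -0.89 to 0.44, and that of Tap2 from -0.55 to 0.50, with no member called.

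The 3 genes of the loading step had differences of opposite sign in the arrays numbered 1 and 2. Among the number 1 arrays, Tap1 stood at -0.55 and -0.75 from untreated cells after wt and kd exosomes, Tap2 at -0.27 and -0.15 and Tapbp at -0.51 and -0.62. Among the number 2 arrays, the same differences were 0.10 and 0.19 for Tap1, 0.22 and 0.36 for Tap2 and 0.68 and 0.33 for Tapbp. Each is a difference between single arrays and shares its untreated array with the other treatment. Marker sums differed between the same number 1 arrays, in the order untreated, wt-treated and kd-treated. They were 3526, 7322 and 6787 for stroma, 58360, 41950 and 35480 for epithelial and 10190, 7535 and 5224 for blood-cell markers. Their part in these differences was not tested. RT1-A1 after kd exosomes was lower in both, at -0.33 and -0.18, and B2m was higher or level, at 0.11 and 0.13.

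The route's other genes gave 0 calls in the 3 comparisons. Those with the smallest p in their lists included Lnpep, a peptide-trimming enzyme that read 140 and 154 in untreated cells, 124 and 135 after wt exosomes and 126 and 128.5 after kd exosomes, where it was not detected, and the class Ib chain RT1-N3 at -0.62 ± 0.26 and -0.45 ± 0.26. Among 15 class I chains and partners, 12 were lower after kd than after wt exosomes, with a median of -0.10 beside 0.00 over all probes and none called. Over all probes 5790 of 11631 were lower. This lean was not particular to class I: 11 of 14 regulators (median -0.16) and 4 of 5 immunoproteasome genes (median -0.11) were lower too. The loading complex list, with 4 of 7 lower, had a median of -0.005.

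**Figure D4:**
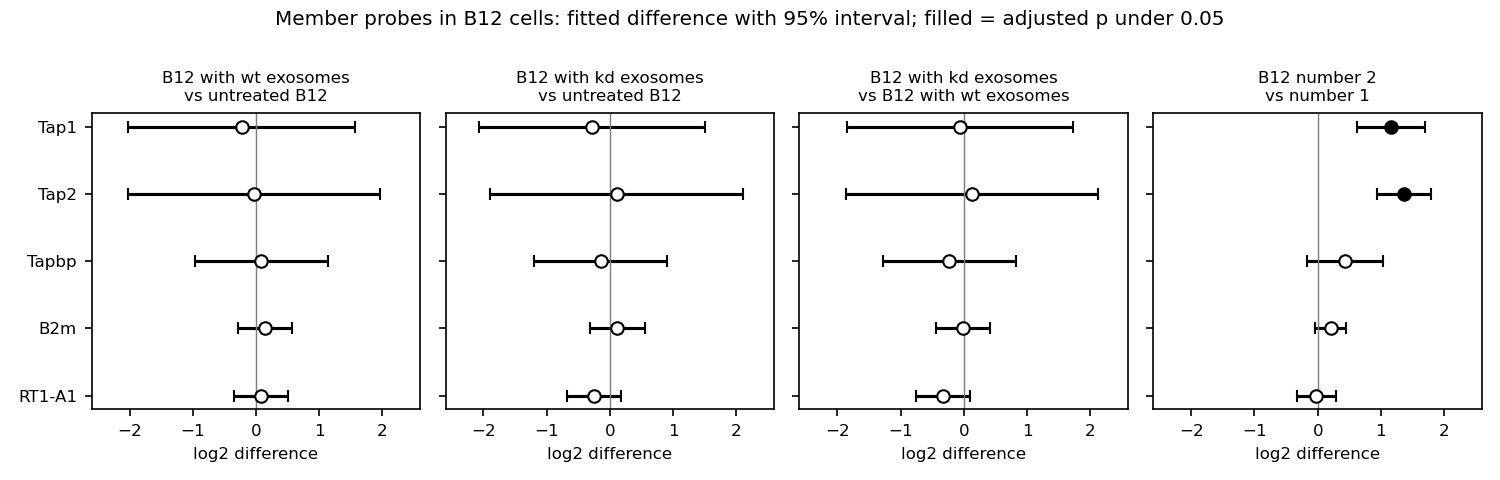
Fitted log2 differences of the 5 members detected in B12 cells, with 95% intervals, in the 3 treatment comparisons (2 arrays per group) and between the arrays numbered 2 and 1 (3 arrays each, with treatment in the fit). Filled points have an adjusted p under 0.05. The treatment differences all span 0, and Tap1 and Tap2 lie at 1.16 and 1.36 between the numbers.

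The largest differences of these genes among B12 arrays followed the replicate number. The labels do not say what that number marks, and the comparison was added after the values were seen. Tap1 and Tap2 were both higher on the number 2 arrays, as were several class I chains and the interferon-gamma receptor, while RT1-A1 and B2m were near level. Of 11631 probes 19.6% were called, 9.41% higher and 10.2% lower.

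Tap2 was higher by 1.36 ± 0.18 on the log2 scale (adjusted p = 0.00453) and Tap1 by 1.16 ± 0.22 (adjusted p = 0.0172). Tap2 was 1.04, 1.52 and 1.54 higher in untreated, wt-treated and kd-treated cells, and Tap1 0.64, 1.28 and 1.57 higher, so all 3 pairs agreed in direction. Leaving out any single wt-treated or kd-treated array ended the call of Tap1, with values from 0.95 to 1.11. Tapbp stood at 0.44 ± 0.25 (adjusted p = 0.289), with -0.28 in untreated and 0.91 and 0.67 in treated cells. With either untreated array left out Tapbp stood at 0.80. Both of these fits rest on the same 2 treated pairs and leave out the untreated pair, the only one of opposite sign, so they are not separate support.

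The 2 subunits of the class I molecule did not pass the threshold. B2m stood at 0.20 ± 0.10 (95% interval -0.04 to 0.45) and RT1-A1 at -0.03 ± 0.13 (95% interval -0.33 to 0.28). The class I heavy chain RT1-A2, whose promoter stretch is printed beside that of RT1-A1, read 130, 134 and 131 on the number 1 arrays in untreated, wt-treated and kd-treated cells, detected on 1 of the 3. It read 2351, 2201 and 2372 on the number 2 arrays, a log2 difference of 6.26 ± 0.17 (adjusted p = 6.38e-05). The difference was 3.17 to 6.30 over 5 scales and called on each.

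Of 15 class I chains and partners, 8 were higher and 1 lower, with a median of 0.72 beside -0.03 over all probes. RT1-T24-4 was higher by 2.98, RT1-CE10 by 2.51, RT1-CE5 by 1.48 and Fcgrt by 0.72. Over the 5 scales these ran down to 1.83, 0.75, 0.35 and 0.68, and the list median from 0.26 to 0.80, with RT1-CE10 detected on 2 and RT1-CE5 on 1 of the number 1 arrays. The lipid-presenting Cd1d1 was lower by a log2 value of -2.04. Of 5 immunoproteasome genes 2 were higher, Psmb8 (1.32) and Psmb10 (1.04 and 0.94 with its 2 probes). Of 7 loading complex genes 1 was higher, Ganab (0.54), called on 3 of the 5 scales.

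Upstream, Ifngr1, the ligand-binding chain of the interferon-gamma receptor, read 620, 686 and 661 on the number 1 arrays and 6907, 7356 and 6454 on the number 2 arrays. It was higher by 3.47 ± 0.13 (adjusted p = 9.48e-05). Of 14 regulators 6 were higher and 1 lower, including Ifngr2 (1.11), the type I interferon receptor Ifnar1 (1.34), Jak2 (0.82) and the NF-kappaB subunits Nfkb1 (0.80) and Rela (0.54). The factor Irf1, Psmb9 and the transactivator Ciita were not called, the last being detected too rarely to test.

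On the class II side, the peptide editor RT1-DMb was lower (-1.24), and Cd74 was detected on neither set. Of 7 proteases, inhibitors and partners 3 were higher, Ifi30, a lysosomal thiol reductase (1.98), Cd44 (1.41) and Cst3 (0.76). In the same list Mif was lower (-0.53). The summed signal of blood-cell markers was 5224 to 10190 on the number 1 and 1539 to 3457 on the number 2 arrays. It came mainly from Cd14 with a smaller part from Cd68, both detected on all 6 arrays. Not all of these markers moved with the sum. In wt-treated cells Cd68 read 541.5 on number 1 and 643 on number 2. Itgam, near background, read 121.8 to 124.6 on the number 1 and 132.9 to 137.7 on the number 2 arrays. Ptprc, Cd3e, Ms4a1 and Cd86 were not detected in B12 cells. The blood-cell sum and the stroma and epithelial sums above differ between the numbers over the same arrays as the members, and their part in the members' values was not tested. In bulk RNA, fewer cells of a type and less RNA per cell cannot be told apart.

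**Figure D5:**
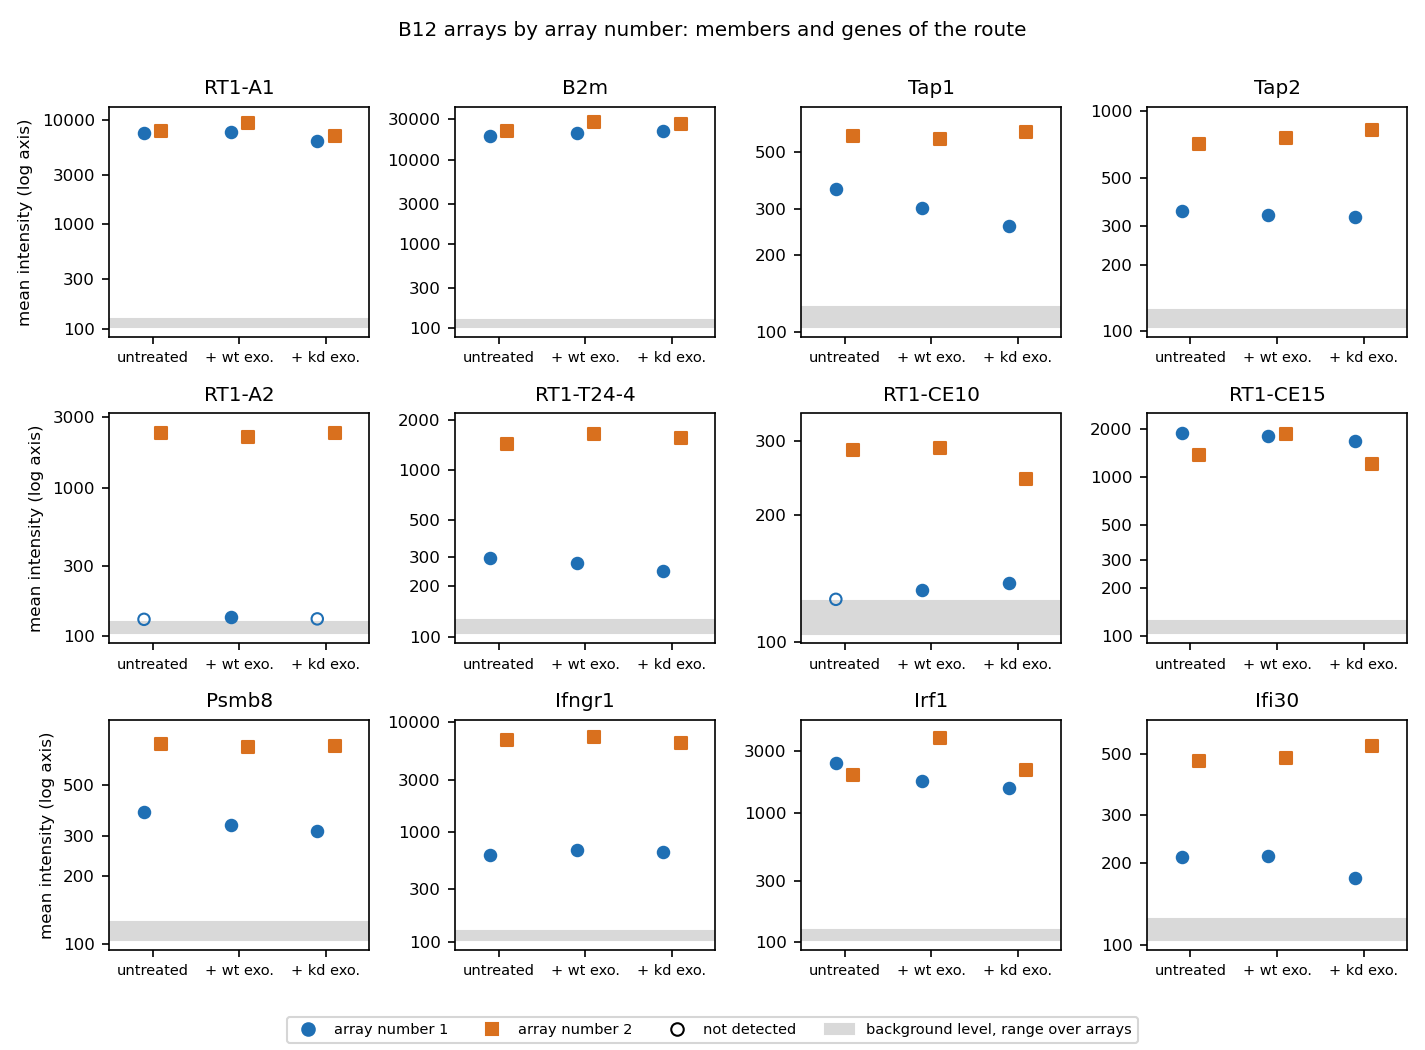
Deposited intensity (log axis) on the 6 B12 arrays for 4 members and 8 genes of the same route, with array number 1 as blue circles, number 2 as orange squares, open symbols for probes not detected and the grey band for the range of background levels over all 12 arrays. RT1-A2 reads 130 to 134 on the number 1 and 2201 to 2372 on the number 2 arrays, whereas RT1-A1 and B2m nearly coincide.

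Across all 12 arrays, after the mean of the exosome arrays and that of the B12 arrays were subtracted, the probes most like each member among 8253 were found by Pearson's r. They were Ddt (0.98), Esd (0.97) and Bloc1s6 (0.97) for Tap1, and RT1-T24-4 (0.99), Scand1 (0.98) and Gpr176 (0.98) for Tap2. For Tapbp they were Birc2 (0.95), Mitd1 (0.94) and Tollip (0.94), for B2m Blcap (0.94), Syvn1 (0.92) and Shkbp1 (0.92), and for RT1-A1 Iscu (0.96), Rpl35a (0.96) and Ddit4 (0.96). No member was among the 3 genes most like another member. The 12 points share the split by number in B12 cells and kd array 3 in the exosomes, so these values describe that shared pattern.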

How the data were processed

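Total RNA was labelled as biotinylated cRNA for Illumina rat arrays, per the labels' protocols. The deposited non-normalised table gives each probe a mean intensity and a p-value per array, per the file headers; what software made it is not stated there. Deposited p-values approached 1 at background and became small above and below it, and were taken as two-sided. The deposited value table holds linear intensities normalised by the authors in a way not stated, with column medians of 119.9 to 145.3 and scale and centring otherwise unknown. It served as an alternative only. Rows without an identifier (848 of 23365) and identifiers on several rows (280, on 571 rows) were left out. The platform table gave 1 symbol for 13129 of the 21946 probes, several for 0 and none for 8817, and 13088 were found in the GRCr8 gene table.

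With neqc (limma 3.58.1, R 4.3.3), each array's background was modelled by normexp at offset 16, and log2 values were quantile normalised among the 6 exosome arrays, the 6 B12 arrays or, to compare exosomes with cells, all 12. A probe was tested if some group had it detected on every array, with limma (lmFit, eBayes with trend), two-sided, Benjamini-Hochberg adjustment over all probes tested and a threshold of 0.05. Of the 6 members, 3 passed in the exosomes and 5 in the B12 cells. For a probe detected in 1 group only, the bound is the bright group's mean log2 signal over the dim group's mean of the higher of its own and the lowest detected signal, and its fitted difference is no bound. Scripts were tested on simulated data.

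The members, gene lists, markers and motifs were chosen with earlier results of these data known, and the motif AANNGAAA was added after the promoters were read. All members are named. From the lists, genes past the threshold were named, up to 6 per list and comparison by smallest p, otherwise up to 2 as values. In the fit without kd array 3 only some of the genes past it were named. Rfxank, Psmb9, Irf1, Ciita, RT1-DMa, RT1-DMb and those named from the fit without kd array 3 were chosen after their values were seen. Alternatives were no background correction, an offset of 50, median scaling, the deposited values, no detection filter, array weights, a replicate block, all 12 arrays together and leaving out each array. Of all array pairs, 0 held identical values. The number of arrays limits the precision.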

Additional observations from a re-analysis of the deposited data

Results flagged for a closer look

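The difference between exosome-treated and untreated B12 cells had opposite signs in the arrays numbered 1 and 2 for 3 members, over both treated arrays of each number. The mean of the treated arrays of number 1 minus the untreated array of number 1 was -0.65 for Tap1, -0.21 for Tap2 and -0.56 for Tapbp on the log2 scale. For number 2 it was 0.14 for Tap1, 0.29 for Tap2 and 0.50 for Tapbp. Each value rests on 1 untreated array, which both treated arrays share, and the difference between the numbers was not tested. For RT1-A1 the treated arrays of number 2 lay on both sides of the untreated array, at 0.295 after wt and -0.18 after kd exosomes.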

How the results depend on the processing

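Over the alternatives, 328 of the member values kept their direction and side of the threshold, 9 passed it, 4 no longer did and 31 changed sign. Of the counts of members called, 74 stayed within 1.5 times, 2 rose and 4 fell. Between kd and wt exosomes, 3 members were called with array weights instead of 0, and 0 to 4 on leaving out an array, 4 without kd array 3. Between the B12 numbers, 1 to 3 were called on leaving out an array, 1 without any wt-treated or kd-treated array. Median scaling turned B2m to 0.373 in kd against wt exosomes, to 0.040 in B12 cells given kd against wt exosomes, and RT1-A1 to 0.139 between the numbers, where array weights gave 0.032. The deposited values gave 0.017 for Tap2 after wt exosomes and 0.017 for B2m in B12 cells given kd against wt exosomes. The causes were not tested.

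On leaving out an array, values after wt exosomes in B12 cells ran from -0.862 to 0.410 for Tap1, -0.783 to 0.736 for Tap2, -0.368 to 0.539 for Tapbp, -0.048 to 0.325 for B2m and -0.035 to 0.187 for RT1-A1. After kd exosomes they ran from -1.067 to 0.499 for Tap1, -0.663 to 0.872 for Tap2 and -0.480 to 0.188 for Tapbp. Between the treated groups they ran from -0.841 to 0.726 for Tap1, -0.636 to 0.898 for Tap2, -0.686 to 0.222 for Tapbp and -0.204 to 0.174 for B2m. For Tap1 in wt exosomes against untreated cells the range was -0.512 to 0.095, and for RT1-A1 between the numbers -0.148 to 0.075.

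Groups share replicate numbers, but the labels do not say that a number marks a shared batch. Same-numbered B12 arrays deviated from their group means together (r of 0.773 to 0.799, with a first principal component of 74.3% of the variance that separates the numbers). In the exosomes these correlations were -0.207, 0.458 and 0.318. Under a replicate block, 0 members were called in the 4 comparisons within exosomes or within B12 cells and 4 in wt exosomes against untreated cells, as without it. No probe was called in those 4 comparisons with the block, where 1076, 650, 670 and 389 had an unadjusted p under 0.05, and 4323 were called across exosomes and cells.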
